A study of Homo sapiens
Mus musculus and Mus musculus and Homo sapiens with 16 samples.

Results

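The 84 human and 84 mouse protein-coding genes for proteins of the cytosolic ribosome were followed in a coculture of lymphoma and stromal cells. They were taken by name from the count tables, as RPL or RPS with a number, RPLP0 to RPLP2 and RPSA, out of 58051 human and 49671 mouse genes. In each species 52 of them were assigned by name alone to the large (60S) and 32 to the small (40S) ribosomal subunit. By the same rule, FAU, RACK1 and RPL36AL, which also encode ribosomal proteins or proteins fused to them, fell outside and are given separately.

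REC-1, a human mantle cell lymphoma cell line, was cultured alone (Sep) or on MS-5, a mouse bone marrow-derived stromal cell line. In the coculture, RNA was taken separately from REC-1 cells in suspension (Susp) and from the adherent layer, which held the adhered REC-1 cells together with the MS-5 cells (Adh). MS-5 cells cultured alone were the fourth group. Each group had 4 libraries of polyA RNA, 16 in all, and RNA was extracted after 24 h of incubation. MS-5 cells were seeded 24 h ahead of the lymphoma cells, all cells grew in the same αMEM medium with serum, and no drug or genetic change was part of these groups. Both lines are single established lines, so the libraries do not represent more than 1 tumor or 1 stroma. The study's figure legends describe the REC-1 libraries of a group as independent experiments. The sources used here do not state whether libraries with the same number shared an experiment, nor whether the MS-5 libraries came from separate cultures, where p-values measure only the spread between these libraries.

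Each cytosolic ribosome is built from ribosomal RNA and one copy of most ribosomal proteins, with the acidic stalk proteins as the known exception. Cells make the proteins in matched amounts, and free ribosomal proteins are degraded. The mRNAs are abundant, short and stable, and most begin with a C followed by a run of pyrimidines (the terminal oligopyrimidine, or TOP, motif) through which mTOR and LARP1 control their translation, whereas MYC raises the transcription of many of the genes. Control through the TOP motif acts largely on translation, which counts of mRNA do not measure.

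The 5′ ends below show this motif for the genes that carry the results, from 10 bases before to 20 bases from the annotated start of the gene's representative transcript (GRCh38, GENCODE release 44). RPLP0 is shown because it passed the test between Susp and Sep cells, RPL13A, RPSA and RPL3 because they passed it only with Susp replicate 2 left out, RPL36A because it had the lowest fold change in adhered cells, and the 3 pairs because a paralog stood beside its main gene. Capitals mark the run searched for, a C at most 5 bases from the start followed by at least 4 bases that are C or T, on the strand of the gene only.
RPLP0 (chr12:120201092-120201121, minus strand): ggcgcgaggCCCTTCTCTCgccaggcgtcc
RPL13A (chr19:49487598-49487627, plus strand): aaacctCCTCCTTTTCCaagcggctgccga
RPSA (chr3:39406723-39406752, plus strand): ttccgtgctacctgcagaggggtccatacg
RPL3 (chr22:39319604-39319633, minus strand): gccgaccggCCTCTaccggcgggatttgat
RPL36A (chrX:101391001-101391030, plus strand): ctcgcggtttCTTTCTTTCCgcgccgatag
RPL22 (chr1:6199576-6199605, minus strand): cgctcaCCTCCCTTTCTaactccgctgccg
RPL22L1 (chr3:170870176-170870205, minus strand): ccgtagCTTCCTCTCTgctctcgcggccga
RPS27 (chr1:153990752-153990781, plus strand): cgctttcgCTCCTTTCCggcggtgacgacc
RPS27L (chr15:63157458-63157487, minus strand): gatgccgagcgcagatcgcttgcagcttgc
RPL39 (chrX:119791611-119791640, minus strand): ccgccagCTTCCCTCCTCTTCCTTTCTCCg
RPL39L (chr3:187139465-187139494, minus strand): ggtcttagcatccggcgcgcggcggttgaa

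A run of at least 5 bases was found at the annotated start of 54 of the 84 human genes (64.3%), against 4220 of 19970 protein-coding genes (21.1%) by the same search. With at least 10 bases, 40 of the 84 genes (47.6%) and 3.0% of all protein-coding genes held one. Among the genes shown, the windows of RPSA, RPS27L and RPL39L held no such run. That states only that these letters are not in these windows, since the annotated start need not be the start used in REC-1 cells.

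Human counts summed to between 7758979 and 21467832 per library and mouse counts to between 10097555 and 34615602. Susp replicate 2 stood apart from the other REC-1 libraries. Its 100 most abundant genes held 23.2% of its counts, against 18.3 to 20.3% in the other 11 libraries. The 100 were taken from all genes, ribosomal protein genes included, so this share is not independent of their own level in that library. Over 12465 genes its log2 ratio to the Sep mean had a Spearman correlation of −0.53 with transcript length. That correlation was −0.15 to −0.2 in the other Susp, −0.049 to −0.25 in Adh and −0.069 to 0.044 in Sep libraries. Its correlation of 0.47 with GC content was not set apart, as the other libraries ran from −0.58 to 0.48. Each REC-1 result is therefore given with and without Susp replicate 2. The share of counts on mitochondrial genes was 1.56 to 2.02% in Sep, 1.31 to 2.17% in Susp and 0.362 to 0.683% in Adh libraries, and with these genes left out of the counts the median log2 fold changes of the ribosomal protein genes were 0.34 for Susp over Sep, 0.23 for Adh over Sep and −0.12 for Adh over Susp, against 0.35, 0.23 and −0.13 with them. The labels held against the summed markers. The 6 B cell markers used here, MS4A1, CD79A and CD79B among them, summed to between 5366 and 6978 CPM (counts scaled to the library's total, with TMM factors) in REC-1 libraries. The stromal list with COL1A1 and PDGFRB summed to at most 5.91 CPM there and to at least 4965 CPM in the mouse counts. Thy1, also on the stromal list, was at 0 CPM in every mouse library.

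As a whole, ribosomal protein genes took 5.87 to 6.18% of the human counts in Sep libraries. In Susp libraries the shares were 6.75, 9.58, 6.79 and 6.71%, and in Adh libraries they were 6.75, 6.83, 7.02 and 7.03%. All 8 cocultured REC-1 libraries were above all 4 Sep libraries, and Susp and Adh libraries overlapped. The mean share and its SD over 4 libraries were 5.99% ± 0.147 for Sep, 7.46% ± 1.41 for Susp and 6.91% ± 0.143 for Adh cells. The other 3 Susp libraries, with replicate 2 left out, had a mean of 6.75% ± 0.0382. In the mouse counts the shares were 4.92, 4.77, 5.06 and 4.83% for MS-5 cells alone and 4.79, 5.05, 5.13 and 5.25% in the coculture, with means of 4.89% ± 0.124 and 5.05% ± 0.194 (SD, n = 4 each). These groups overlapped. In bulk RNA, fewer cells of a type and less RNA per cell cannot be told apart, and a share of the counts does not give the amount per cell.

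**Figure D1:**
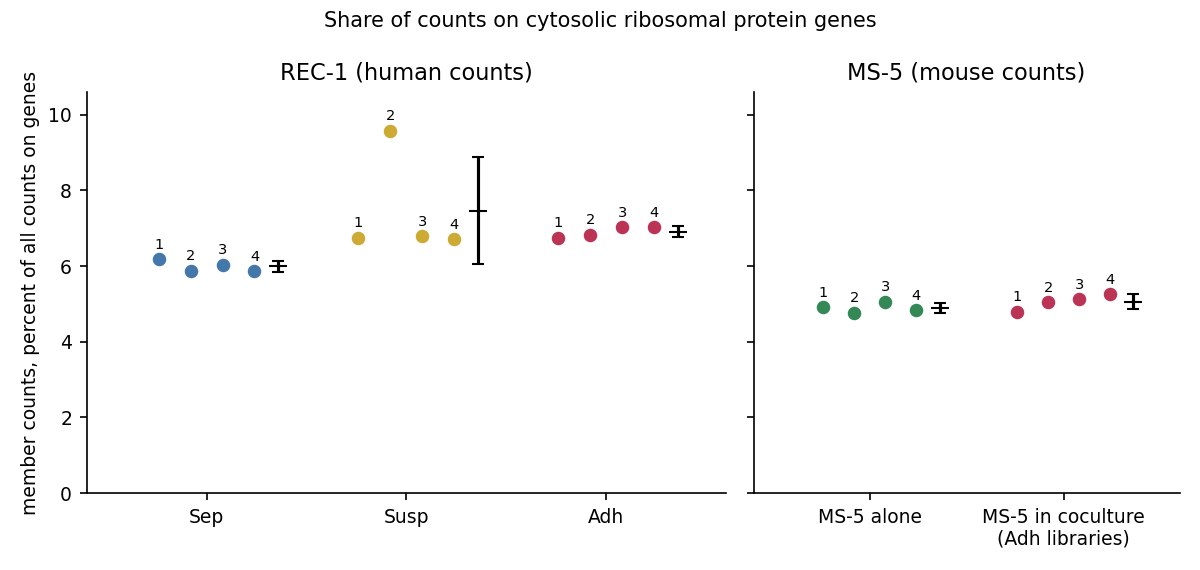
Counts on the 84 ribosomal protein genes as a percent of all counts on genes of that species (y axis, from 0), for each library by group. Numbers are replicates and bars are the mean and SD of 4 libraries. Susp replicate 2 stands at 9.58%, and the other 7 cocultured REC-1 libraries lie between 6.71 and 7.03%, above the 4 Sep libraries.

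The higher share in the coculture was spread over the genes. The 10 most abundant of them held between 29.1 and 30.9% of the ribosomal protein counts in every human library and between 30.4 and 32.0% in every mouse library. Relative to the Sep mean, the median gene had log2 ratios of 0.086, −0.037, −0.0045 and −0.038 in Sep replicates 1 to 4. The corresponding medians were 0.18, 0.72, 0.22 and 0.17 in Susp replicates 1 to 4 and 0.20, 0.20, 0.25 and 0.27 in Adh replicates 1 to 4. Thus the cocultured libraries other than Susp replicate 2 lay within a narrow band above the Sep libraries.

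**Figure D2:**
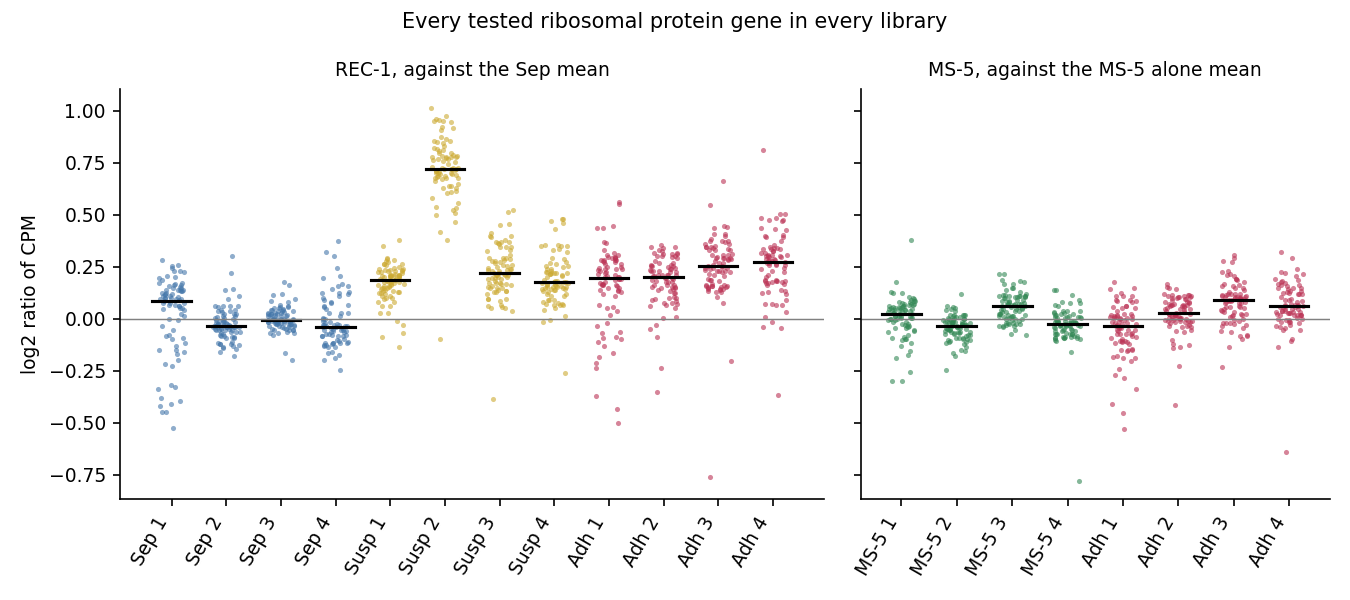
Log2 ratio of CPM (y axis) of each of the 82 tested ribosomal protein genes in each library, to the Sep mean for REC-1 (left) and to the mean of MS-5 cells alone for MS-5 (right). Bars mark the median gene, which lies at 0.72 in Susp replicate 2, between 0.17 and 0.27 in the other cocultured REC-1 libraries, and between −0.036 and 0.088 in all mouse libraries.

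Within groups these genes varied less than all tested genes, except in Susp cells with replicate 2 included. The sets compared were not matched for level, and the part of level in this gap was not tested. The median coefficient of variation of the ribosomal protein genes was 7.53% in Sep and 6.23% in Adh cells, against 12.3 and 13.1% over all tested genes. In Susp cells it was 20.5% against 15.8% for all genes, and without replicate 2 it was 3.6% against 8.53%. In the mouse counts the medians were 5.05% in MS-5 cells alone and 5.44% in the coculture, against 8.8 and 8.43% for all genes.

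How these genes in a library stood against the Sep mean went with their GC content, and this differed between replicates. Across the 82 tested genes, which share one library and are not independent, the Spearman correlation of the log2 ratio with transcript GC content was −0.62, 0.27, 0.21 and 0.72 in Sep replicates 1 to 4. It was 0.15, 0.58, 0.73 and 0.59 in Susp and −0.31, 0.56, −0.13 and 0.70 in Adh replicates 1 to 4. Replicate 1 had the lowest value in each of these 3 groups. The trend was not particular to these genes. Over 12465 genes replicate 1 was also lowest in each group, at −0.58 in Sep, −0.053 in Susp and −0.39 in Adh. Fold changes are therefore also given after the trends with GC content and transcript length were removed from each library.

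To ask what presence in the coculture without adhesion went with, Susp cells were compared with Sep cells in 1 edgeR quasi-likelihood model of the 12 REC-1 libraries, with Benjamini-Hochberg adjustment over all 12861 tested genes. Of the ribosomal protein genes, 80 of 82 tested had a higher estimate in Susp cells, with a median log2 fold change of 0.35 (quartiles 0.30 and 0.41), whereas 49.2% of all tested genes were higher. In this model RPLP0 was the only one at an adjusted p of at most 0.05, against 1.02% of all tested genes, and 0 reached the study's criterion of that adjusted p with a fold change of at least 1.5, against 0.731%. By DESeq2 24 passed the adjusted p, against 3.02% of all tested genes, and 0 that criterion. At an unadjusted p under 0.05 edgeR had 72, all higher, against 16.7% of all tested genes. The libraries of the groups did not overlap for 44 of the 82 genes, all higher in Susp cells, against 11.3% of all genes in either direction.

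With Susp replicate 2 left out the median was 0.19, with 81 of 82 genes higher. RPLP0, RPL13A, RPSA and RPL3 then passed at an adjusted p of at most 0.05 (edgeR, Benjamini-Hochberg), against 1.18% of all tested genes. With GC and length trends removed, 15 of the 82 genes passed in all libraries, all higher with a median of 0.18, against 3.17% of all tested genes, and 20 passed without Susp replicate 2, with a median of 0.13, against 3.53%.

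RPLP0 encodes the core protein of the ribosomal stalk, the arm of the large subunit that recruits translation factors, and it (ENSG00000089157) lies at chr12:120196699-120201235 on the minus strand. It was at 1663, 1477, 1474 and 1578 CPM in Sep libraries 1 to 4. Susp libraries had 1869, 2663, 1999 and 1892 CPM, and Adh libraries had 1790, 1919, 1809 and 1942 CPM. Every cocultured library was above every Sep library. The log2 fold change of Susp over Sep was 0.44 (SE 0.10; edgeR, adjusted p = 0.0402), and without Susp replicate 2 it was 0.30 (SE 0.06; adjusted p = 0.00987). Adh over Sep cells, the estimate was 0.27 (SE 0.10; adjusted p = 0.138) with all libraries and 0.27 (SE 0.05; adjusted p = 0.00406) without that library, which entered this comparison through the shared estimate of spread. RPLP0 no longer passed in Susp over Sep with upper-quartile factors, with the 2 groups fitted alone, or when replicate 2, 3 or 4 was left out of all groups.

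Its partners on the stalk, RPLP1 and RPLP2, which sit on RPLP0 as dimers, varied more within groups. RPLP1 was at 322, 453, 477 and 508 CPM in Sep, 449, 889, 580 and 562 in Susp and 379, 543, 537 and 542 in Adh libraries 1 to 4. RPLP2 was at 448, 629, 622 and 656 CPM in Sep, 577, 1143, 746 and 701 in Susp and 499, 688, 696 and 762 in Adh libraries. Replicate 1 was lowest in every group for both genes, and the groups overlapped. Neither gene passed in any of the 3 REC-1 comparisons, and Susp over Sep the log2 fold changes were 0.49 (edgeR, adjusted p = 0.21) for RPLP1 and 0.43 (adjusted p = 0.257) for RPLP2.

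RPSA, a protein of the small subunit that is also known as the laminin receptor (ENSG00000168028), lies at chr3:39406716-39426255 on the plus strand. It was at 1450, 1262, 1334 and 1312 CPM in Sep, 1600, 2259, 1619 and 1591 in Susp and 1573, 1570, 1594 and 1653 in Adh libraries. The Adh libraries lay close together and above all Sep libraries. The Susp libraries were also above all Sep libraries, with replicate 2 far above the other 3. Susp over Sep, the log2 fold change was 0.40 (SE 0.10; edgeR, adjusted p = 0.0706), and 0.25 (SE 0.06; adjusted p = 0.0334) without Susp replicate 2. Adh over Sep it was 0.25 (adjusted p = 0.164), and 0.26 (adjusted p = 0.00498) without that library.

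RPL13A, which besides its place in the large subunit is known as a component of an interferon-induced translation silencing complex, was named after its values were seen, as was RPL3, a core protein near the peptidyl transferase center. RPL13A was at 1750, 1856, 1806 and 1982 CPM in Sep, 2216, 3334, 2434 and 2222 in Susp and 2030, 2211, 2057 and 2366 in Adh libraries. RPL3 was at 1341, 1290, 1312 and 1371 CPM in Sep, 1536, 2064, 1645 and 1544 in Susp and 1460, 1638, 1490 and 1640 in Adh libraries. For both, cocultured and Sep libraries did not overlap. The log2 fold changes of Susp over Sep were 0.46 (edgeR, adjusted p = 0.0578) for RPL13A and 0.35 (adjusted p = 0.075) for RPL3 with all libraries, and 0.30 (adjusted p = 0.0182) and 0.24 (adjusted p = 0.0452) without Susp replicate 2.

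The largest estimates of Susp over Sep, chosen after their values were seen, belonged to RPS28 (0.56), RPS2 (0.55) and RPL8 (0.52), and none of these passed (edgeR, adjusted p = 0.116, 0.109 and 0.0941). At the other end stood 2 genes with paralog names, RPL22L1 at −0.05 and RPL7L1 at −0.0022. RPL22L1, a paralog of RPL22 that can enter the large subunit in its place, was at 52.4, 49.8, 46.7 and 41.8 CPM in Sep, 44.9, 63.6, 36.5 and 39.8 in Susp and 44.7, 44.8, 63.2 and 47.1 in Adh libraries. Its groups overlapped, and without Susp replicate 2 the estimate was −0.25 (adjusted p = 0.499).

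**Figure D3:**
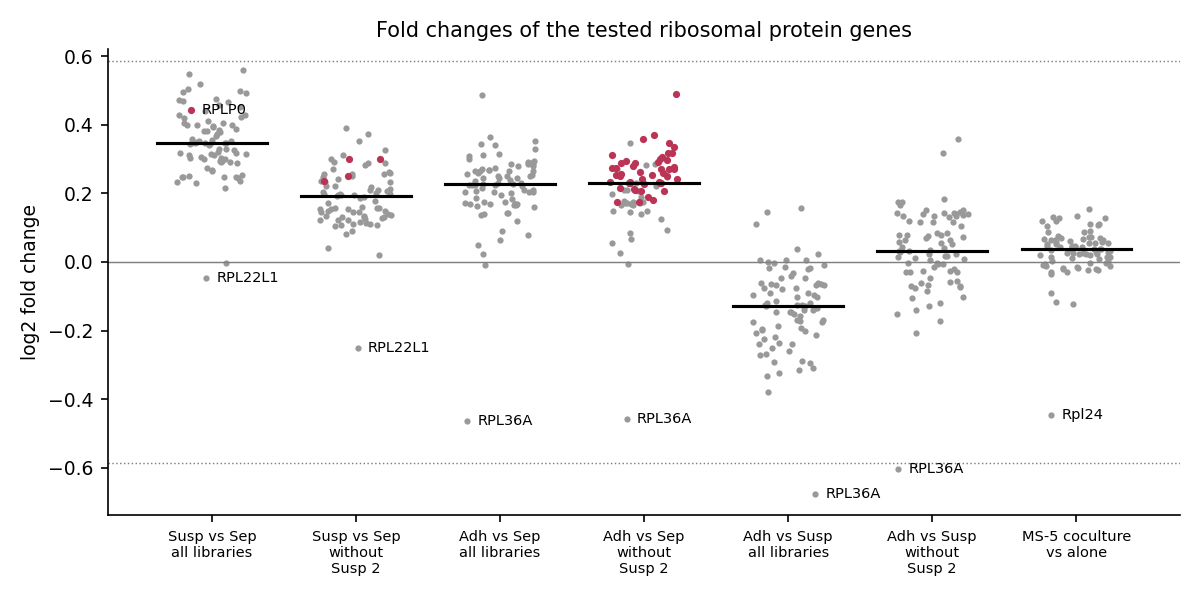
Log2 fold change (y axis) of each of the 82 tested ribosomal protein genes in each comparison, with bars at the median, dotted lines at a fold change of 1.5 and genes at an adjusted p of at most 0.05 in red. The medians of Susp over Sep and Adh over Sep lie above 0 in both sets of libraries, and that of Adh over Susp moves from −0.13 to 0.033 when Susp replicate 2 is left out.

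Adhered REC-1 cells were compared with the same Sep libraries, so the values of both comparisons share their controls. The estimate was higher in Adh cells for 80 of 82 genes, with a median log2 fold change of 0.23 (quartiles 0.17 and 0.27), whereas 49.5% of all tested genes were higher. None of the 82 passed at an adjusted p of at most 0.05 by edgeR or by DESeq2, against 3.41 and 7.57% of all tested genes, and none was called, against 2.4% by edgeR. The lowest adjusted p by edgeR was 0.0881. At an unadjusted p under 0.05, 33 were higher and 1 was lower, against 20.2% of all tested genes. Groups did not overlap for 41 genes, 40 of them higher, against 15.7% of all genes.

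In the model without Susp replicate 2, 48 of the 82 genes were higher at an adjusted p of at most 0.05 (edgeR, Benjamini-Hochberg), against 5.51% of all tested genes that were higher, and the median was 0.23. With the Adh and Sep libraries fitted alone, 34 were higher, against 3.45% of all tested genes. The estimates themselves moved little, since that library belongs to neither group and acts here through the estimate of spread. With GC and length trends removed the median was 0.14, with 11 genes higher and 1 lower in all libraries, against 10.9% of all tested genes. None of the 48 reached a fold change of 1.5, against 3.97% of all tested genes that were called in this model.

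RPS26, a small subunit protein at the mRNA exit channel, had the lowest adjusted p and was named after its values were seen. It was at 312, 291, 305 and 283 CPM in Sep, 349.9, 525, 352 and 355 in Susp and 383, 354, 404 and 391 in Adh libraries, and all Adh libraries were above all Sep libraries. Adh over Sep, its log2 fold change was 0.36 (SE 0.12; edgeR, adjusted p = 0.0881), and 0.37 (SE 0.06; adjusted p = 0.00104) without Susp replicate 2. Other estimates near it were 0.35 for RPS19 and 0.34 for RPL35.

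Both subunits had like medians. Susp over Sep, the median log2 fold change was 0.34 for the 50 tested genes of the large and 0.36 for the 32 of the small subunit. Adh over Sep, the medians were 0.21 and 0.25, and in MS-5 cells they were 0.034 and 0.037. Genes with and without a pyrimidine run at their annotated start also had like medians. For Susp over Sep both were 0.35, and for Adh over Sep they were 0.22 with a run (54 genes) and 0.25 without (28 tested genes).

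RPL36A, a large subunit protein (ENSG00000241343) at chrX:101390824-101396155 on the plus strand, had the lowest estimates in adhered cells. It was at 6.06, 9.37, 7.53 and 7.50 CPM in Sep and 9.89, 9.90, 7.98 and 7.59 in Susp libraries. In Adh libraries it was at 5.64, 5.97, 4.50 and 5.90 CPM, below every library of both other groups. The values rested on 35 to 165 counts per library. Adh over Susp, its log2 fold change was −0.68 (SE 0.18; edgeR, adjusted p = 0.077), and without Susp replicate 2 it was −0.60 (adjusted p = 0.116). Adh over Sep the estimate was −0.46 (SE 0.18; adjusted p = 0.162). With GC and length trends removed it was called in both comparisons, at −0.76 (adjusted p = 0.0247, where 3.39% of all tested genes passed) and −0.60 (adjusted p = 0.0457). By DESeq2 it was called in Adh over Susp at −0.67, where 3.97% of all tested genes passed.

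Of the exon bases of its representative transcript, 43.8% were shared with the read-through gene RPL36A-HNRNPH2, which was at 0 in every human library, and counts in such stretches depend on how overlapping genes were handled. The human counts of Adh libraries also passed a separation from mouse reads by sequence, and its effect on a gene this conserved was not tested. On 4 stromal genes (COL1A1, COL1A2, COL3A1 and SPARC), 0 to 6 human counts stood against 118466 to 125336 mouse counts in each Adh library, at most 0.00479%.

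RPL36AL, the paralog that encodes a nearly identical protein and lies outside the name rule, had far more counts. It was at 126, 109, 112 and 107 CPM in Sep, 141, 188, 126 and 124 in Susp and 152, 135, 163 and 146 in Adh libraries. Adh and Sep libraries did not overlap, and the estimate of 0.39 on the log2 scale (SE 0.12) did not pass with all libraries (edgeR, adjusted p = 0.0832). Without Susp replicate 2 it was again 0.39 (SE 0.08) and passed (adjusted p = 0.00581). Per coding length, it made up 93.7% ± 1.38 of the pair's CPM in Sep, 94.2% ± 0.641 in Susp and 96.4% ± 0.662 in Adh cells (SD, n = 4 each). In MS-5 cells it made up 26.0% ± 1.53 alone and 23.8% ± 1.77 in the coculture. Human RPL36A shared 43.8% of its exon bases with another gene and mouse Rpl36a 0%. The effect of this on the shares of the pair was not tested.

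**Figure D4:**
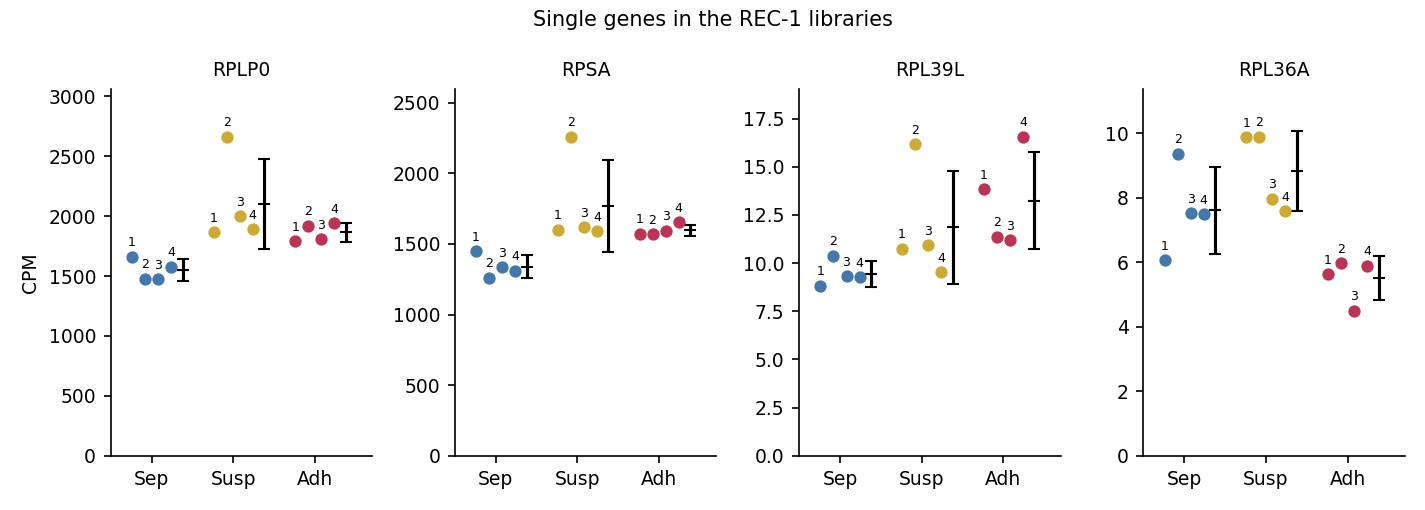
CPM (y axes, from 0) of RPLP0, RPSA, RPL39L and RPL36A in each REC-1 library by group, with replicate numbers and the mean and SD of 4 libraries. RPLP0 and RPSA lie higher in all cocultured than in all Sep libraries, RPL39L lies higher in Adh than in Sep libraries, and RPL36A lies lowest in the 4 Adh libraries.

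Within the coculture, adhered cells were compared with cells in suspension, to ask what adhesion went with. Here 74 of the 82 genes had a lower estimate in Adh cells, with a median log2 fold change of −0.13. Leaving out Susp replicate 2 turned the sign, with 52 genes higher and a median of 0.033. By edgeR 0 of the 82 passed with or without that library, against 0.941 and 1.2% of all tested genes, and 0 were called, against 0.778 and 0.68%. By DESeq2 1 passed, and at an unadjusted p under 0.05 by edgeR 9 were lower with all libraries, against 18.0% of all tested genes. The groups did not overlap for 4 genes, against 11.4% of all genes. Beside RPL36A these were RPL7 and RPS3A, which were lower in Adh cells, and RPL7L1, which was higher. With GC and length trends removed, 5 of the 82 genes (6.1%) passed by edgeR, all lower, against 3.39% of all tested genes. The median was then −0.064. With Susp replicate 2 also left out, 5 passed, all lower, against 4.98%, and the median was 0.018.

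RPL7L1, which despite its name is known as a factor in the assembly of the large subunit, was at 355, 328, 323 and 324 CPM in Sep, 347, 311, 341 and 329 in Susp and 380, 355, 358 and 377 in Adh libraries. Every Adh library was above every library of the other groups, by a small margin over the highest Sep library. Its log2 fold change was 0.15 over Susp (edgeR, adjusted p = 0.296) and 0.14 over Sep cells (adjusted p = 0.275), and it did not pass in either. RPL7, a core protein of the large subunit, was at 2882, 3850, 2832 and 2743 CPM in Susp and 2658, 2591, 2720 and 2565 in Adh libraries, a log2 fold change of −0.22 (adjusted p = 0.245) that was −0.084 without Susp replicate 2.

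Paralog pairs had different shares in the 2 cell lines. As levels, each paralog is given as a percent of the pair's CPM per coding length. RPS27L, a p53 target whose protein resembles RPS27, made up 1.84% ± 0.146 of its pair in Sep, 1.80% ± 0.113 in Susp and 1.96% ± 0.397 in Adh cells, but 40.0% ± 1.75 in MS-5 cells alone and 37.6% ± 0.517 in the coculture (SD, n = 4 each). For RPL22L1 the shares were 7.94% ± 0.51, 6.55% ± 0.628 and 7.14% ± 0.758 in Sep, Susp and Adh cells and 29.6% ± 2.2 and 29.3% ± 1.18 in MS-5 cells alone and in the coculture. The REC-1 and MS-5 libraries did not overlap for either pair. Species, cell type and annotation differ together here and cannot be told apart.

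RPL39L, the paralog of RPL39 that is known for its high level in testis, was at 8.82, 10.4, 9.31 and 9.25 CPM in Sep, 10.8, 16.2, 10.9 and 9.54 in Susp and 13.8, 11.4, 11.2 and 16.6 in Adh libraries. Adh libraries were all above Sep libraries and overlapped Susp libraries. Its estimate of Adh over Sep was the highest among these genes, at 0.49 on the log2 scale (SE 0.18; edgeR, adjusted p = 0.14), and 0.49 (adjusted p = 0.0412) without Susp replicate 2. It made up 3.02% ± 0.427 of its pair in Sep, 2.85% ± 0.093 in Susp and 3.98% ± 0.98 in Adh cells, against 21.3% ± 2.5 in MS-5 cells alone and 20.1% ± 2.28 in the coculture.

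For RPL7L1 the share of the pair was 12.1% ± 0.488 in Sep and 12.5% ± 0.365 in MS-5 cells alone (SD, n = 4 each), but per mRNA length it was 4.43% ± 0.194 and 10.3% ± 0.31. RPL26L1, which has no mouse gene of that name among those taken, made up 21.8% ± 1.2, 21.5% ± 1.68 and 19.9% ± 1.1 of its pair in Sep, Susp and Adh cells. RPL3L, the striated muscle form of RPL3, and RPL10L, the testis form of RPL10, were not tested in either species. RPL3L was at most at 0.51 CPM in a human library, and RPL10L and both mouse genes were at 0 in all libraries.

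Across the genes, levels per coding length ranged widely, although their proteins enter the ribosome in near-equal numbers. In REC-1 cells the median was 1493 CPM per kb of coding length (quartiles 991 and 2224), with 60 of the 82 tested genes above 1000 and 6 below 100. RPL41 was highest at 13950, where its coding length of 75 bases raises the value, followed by RPL10 at 4432 and RPS18 at 4296. Lowest were RPS10 at 17.9, RPL17 at 20.004 and RPL36A at 23.0. For these 3 genes 84.0, 96.9 and 43.8% of the exon bases were shared with an annotated read-through gene (RPS10-NUDT3, RPL17-C18orf32 and RPL36A-HNRNPH2), and those were at 0 in every library. Over all 84 human genes, 11 shared at least 20% of their exon bases with another gene. Pairs that map equally well to a gene and its pseudogene were also dropped from the counts. The effect of this on levels, on gaps between the species and on paralog shares was not tested.

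In MS-5 cells the median level was 1165 CPM per kb of coding length, with Rpl41 at 10474, Rplp1 at 3269 and Rps12 at 3208 as the highest. Lowest were Rpl24 at 3.92, Rpl13a at 65.6 and Rpl29 at 91.3, of which Rpl24 shared 71.5% of its exon bases with the gene Gm28037 and Rpl13a 59.3% with other genes. Mouse Rpl36a, Rps10 and Rpl17 were not among the low genes.

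Over the 80 genes with the same name tested in both species, the Spearman correlation of the level in Sep and in MS-5 cells was 0.27, and 0.29 over the 64 genes that shared less than 20% of their exon bases with other genes. These genes share their own library in each line and are not independent. The median ratio of Sep to MS-5 was 1.18, and 53 of the 80 lay within 2-fold of it. The widest gaps, as log2 ratios of Sep to MS-5 levels, were 8.06 for RPL24, −5.98 for RPS10, −5.94 for RPL17, 5.59 for RPL13A and −5.42 for RPL36A. Next came the paralogs RPS27L at −3.61 and RPL39L at −3.44, and then RPS21 at −3.30 and RPL29 at 3.07.

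**Figure D5:**
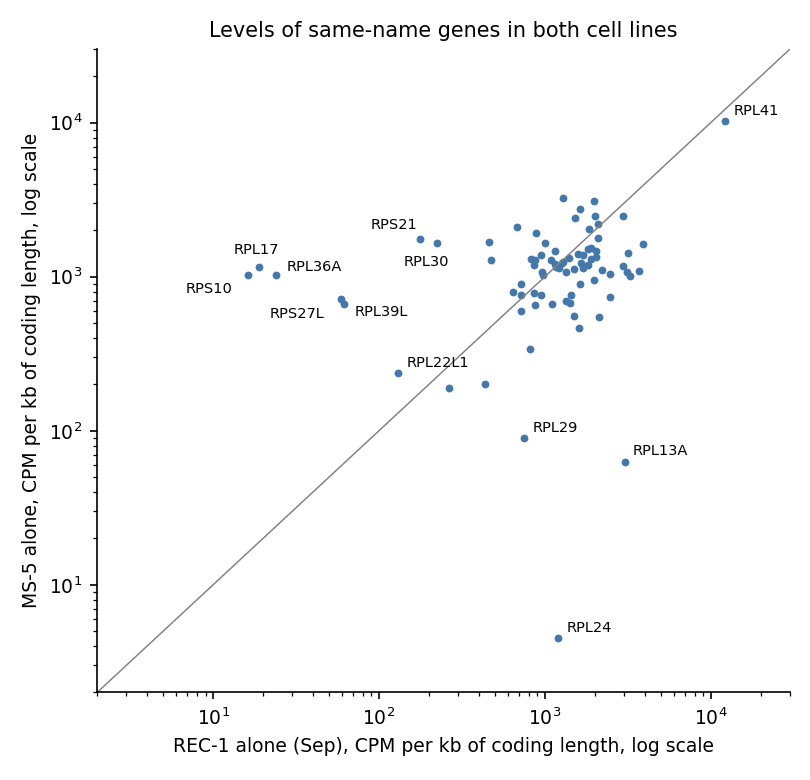
Levels of the 80 same-name genes in CPM per kb of coding length on log axes, in REC-1 cells alone (x axis) and MS-5 cells alone (y axis), with the line of equal levels. RPS10, RPL17 and RPL36A lie far above the line, RPL24 and RPL13A lie far below it, and 53 of the 80 genes lie within 2-fold of the median ratio of 1.18.

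Finally, the stromal side of the coculture was compared with MS-5 cells grown alone. Of the 82 tested mouse genes, 62 had a higher estimate in the coculture, with a median log2 fold change of 0.037 (quartiles 0.00068 and 0.065), whereas 49.6% of all 12201 tested genes were higher. With GC and length trends removed, 44 were higher and 38 lower, with a median of 0.0045. By edgeR and by DESeq2 0 passed at an adjusted p of at most 0.05, against 0.77 and 2.08% of all tested genes, and 0 were called, against 0.205%. At an unadjusted p under 0.05, 6 were higher and 1 was lower, against 11.3% of all tested genes, and groups did not overlap for 7 genes, against 6.74%.

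Rplp0 was at 2499, 2595, 2748 and 2700 CPM in MS-5 cells alone and 2377, 2838, 2551 and 2939 in the coculture, and the groups overlapped (log2 fold change 0.02; edgeR, adjusted p = 0.94). Rpsa was at 2168, 2081, 2123 and 2137 CPM alone and 2075, 2247, 2091 and 2313 in the coculture, which also overlapped. Rplp1 was at 901, 1092, 1246 and 1200 CPM alone and 836, 1206, 1197 and 1267 in the coculture, with replicate 1 lowest in both groups, as for human RPLP1.

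Among the mouse genes, the highest estimate was that of Rpl21, a large subunit protein, at 0.15 (edgeR, adjusted p = 0.196), and the lowest was that of Rpl24, a large subunit protein at the bridge between the subunits. Rpl24 was at 2.16, 1.99, 2.03 and 2.35 CPM alone and 1.48, 1.60, 1.81 and 1.37 in the coculture. The groups did not overlap, on 20 to 63 counts per library, and the log2 fold change of −0.44 (SE 0.23) did not pass (edgeR, adjusted p = 0.487). Rpl36a, in contrast to the human gene, was at 356, 299, 340 and 306 CPM alone and 359, 325, 393 and 338 in the coculture, where the groups overlapped (0.12; adjusted p = 0.547).

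Genes tied to the ribosomal proteins were counted from lists. Over all tested genes, 16.7% in Susp over Sep and 20.2% in Adh over Sep had an unadjusted p under 0.05. In Susp over Sep, Adh over Sep and Adh over Susp, 1.02, 3.41 and 0.941% passed by edgeR and 3.02, 7.57 and 3.97% by DESeq2. Without Susp replicate 2, 11.9% passed in Adh over Sep by edgeR. In MS-5 cells 11.3% had that unadjusted p, and 0.77 and 2.08% passed by edgeR and DESeq2. Of 3 genes for ribosomal proteins outside the name rule (FAU, RACK1 and RPL36AL), 0 passed by edgeR in any comparison with all libraries, with medians of 0.35 for Susp over Sep and 0.25 for Adh over Sep. At an unadjusted p under 0.05, 3 and 2 of them were higher in these comparisons, and by DESeq2 1 passed in each. Leaving out Susp replicate 2, 2 of them were higher in adhered than in Sep cells, RACK1 by 0.23 and RPL36AL by 0.39. RACK1, a scaffold protein on the small subunit, was at 1440, 1391, 1408 and 1470 CPM in Sep and 1605, 1729, 1604 and 1757 in Adh libraries (adjusted p = 0.00675).

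Of 14 translation factors and related proteins whose mRNAs carry a TOP motif, 13 were tested and 0 passed by edgeR with all libraries, with medians of 0.18 for Susp over Sep and 0.14 for Adh over Sep. By DESeq2 0 passed in these comparisons, and at an unadjusted p under 0.05 by edgeR 4 were higher in Susp and 2 were higher and 1 lower in Adh cells. In the model without Susp replicate 2, EEF1A1, EEF1B2 and TPT1 were higher in adhered than in Sep cells, and EEF1D was lower. There 11.9% of all tested genes passed. EEF1A1, the elongation factor that delivers aminoacyl-tRNA, was higher by 0.18 (edgeR, adjusted p = 0.0423). EEF1D, a subunit of its exchange factor, was at 87.7, 162, 132 and 155 CPM in Sep and 74.1, 107, 92.5 and 108 in Adh libraries, which overlapped (log2 fold change −0.49; adjusted p = 0.0471).

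The 8 small nucleolar RNA host genes, many of which also begin with a TOP motif, had medians of 0.32 for Susp over Sep and 0.17 for Adh over Sep. SNHG12 was called lower in Adh than in Susp cells. It was at 24.5, 31.4, 21.1 and 25.4 CPM in Sep, 28.0, 38.3, 26.5 and 28.1 in Susp and 18.7, 15.8, 18.2 and 19.8 in Adh libraries, and the Adh libraries lay below all others. Adh over Susp, its log2 fold change was −0.74 (SE 0.15; edgeR, adjusted p = 0.0204), and −0.59 (adjusted p = 0.0326) without Susp replicate 2, and the call was lost when any of the 4 replicate numbers was left out of all groups. Of the 8, 0 passed by edgeR in Susp over Sep (2 by DESeq2, and 6 higher at an unadjusted p under 0.05) and in Adh over Sep (1 by DESeq2, and 2 higher and 1 lower at an unadjusted p under 0.05). SNHG5 (0.29) and ZFAS1 (0.28) were higher in adhered than in Sep cells in the model without Susp replicate 2 (edgeR, adjusted p = 0.0204 and 0.0492). There 1 of the 8 passed as lower, and 5 of the 8 had a higher and 3 a lower estimate. Of all tested genes 11.9% passed in that model.

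Of 24 genes of ribosome biogenesis, NPM1, the nucleolar chaperone of ribosome assembly, was the only one to pass by edgeR with all libraries, and it did so in Adh over Sep. By DESeq2, 3 passed in Adh over Sep, 1 in Adh over Susp and 0 in Susp over Sep, where 7 were higher at an unadjusted p under 0.05 by edgeR. It was at 2649, 2483, 2314 and 2341 CPM in Sep, 2681, 3103, 2684 and 2627 in Susp and 3092, 2879, 3046 and 3033 in Adh libraries, with no overlap of Adh and Sep. The log2 fold change was 0.30 (SE 0.07; edgeR, adjusted p = 0.031). It did not pass with upper-quartile factors or when replicate 1, 3 or 4 was left out of all groups. In the model without Susp replicate 2, DKC1, GNL3, NOP58 and NOP10 also passed, all higher, where 11.9% of all tested genes passed. In MS-5 cells 0 of the 24 passed by edgeR and 2 by DESeq2, while 22 had a lower estimate in the coculture (median −0.13), 9 of them at an unadjusted p under 0.05.

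Of 11 regulators, 0 passed by edgeR with all libraries, with medians of −0.069 for Susp over Sep and −0.055 for Adh over Sep. At an unadjusted p under 0.05, 0 stood out in the first and 2 were lower in the second comparison, against 16.7 and 20.2% of all tested genes. In the second, 1 passed by DESeq2, against 7.57%. MYC lay between 166 and 241 CPM in all 12 REC-1 libraries, and its groups overlapped. TSC1, which restrains mTOR, was at 52.3, 57.8, 49.9 and 50.6 CPM in Sep and 40.0, 40.7, 38.2 and 37.7 in Adh libraries. By the fit without Susp replicate 2 it was lower in adhered cells (log2 fold change −0.42 over Sep; edgeR, adjusted p = 0.00416). It was the only 1 of the 11 regulators to pass there, against 11.9% of all tested genes. Of 1024 pseudogenes of ribosomal protein genes that were counted, 54 were tested, with medians of 0.32 for Susp over Sep and 0.30 for Adh over Sep, and 0 passed by edgeR with all libraries (1 and 2 by DESeq2). At an unadjusted p under 0.05 by edgeR, 11 were higher in the first comparison, and 5 were higher and 2 lower in the second. The shares of all tested genes were 16.7 and 20.2%. In MS-5 cells 0 genes of the regulators passed by edgeR and 1 by DESeq2 (median −0.081), and by both 0 passed of the ribosomal proteins outside the name rule, the translation factors and the host genes (medians 0.018, 0.027 and 0.031), of which 2 translation factors were higher at an unadjusted p under 0.05.

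Other markers also differed between the groups. Of the B cell list, CD79B was higher in Susp than in Sep cells (log2 fold change 0.55; edgeR, adjusted p = 0.031). Of 6 markers of other cells in the human counts, 3 were tested and their summed level was 18.3 to 21.4 CPM in Sep, 17.5 to 25.8 in Susp and 21.1 to 34.9 in Adh libraries, with EPCAM higher in adhered than in Sep cells (0.69; adjusted p = 0.0288). Their part in the results was not tested. In the mouse counts Ptprc, Cd3e, Epcam and Pecam1 together were at 0 in MS-5 cells alone and at most at 0.18 CPM in the coculture.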

How the data were processed

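Per the labels and the study's methods, the authors purified polyA RNA, made Illumina TruSeq libraries, split the read pairs by species with Xenome 1.0.1, aligned uniquely mapping pairs with STAR 2.5.1b to GRCh38 and GRCm38 (Ensembl release 87), and counted fragments per gene with featureCounts of Subread 1.5.2. The deposited values were raw counts, whole numbers that were not normalized. Pairs that map equally well to a gene and its pseudogene were dropped by the unique mapping. Of the count tables, 20 columns of samples outside these groups were not used.

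The members and lists were chosen with earlier results of these data known. Some list genes are not reported here. Genes were named in the text if called, if highest or lowest in level, as stalk protein or RPSA, or as part of a paralog pair, and all others were chosen after their values were seen.

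Human counts of the 12 REC-1 libraries were fitted in 1 edgeR 4.0.16 model in R 4.3.3, and mouse counts of the 4 Adh and 4 MS-5 libraries in another, with filterByExpr, TMM factors and the quasi-likelihood F-test. p-values were adjusted by Benjamini-Hochberg over all tested genes (12861 human, 13084 without Susp replicate 2, and 12201 mouse). A gene passed at an adjusted p of at most 0.05 and was called if its fold change was also 1.5 or more. CPM used TMM-scaled library sizes. Levels between genes used CPM per kb of coding length, because annotated exon unions of these genes are inflated by rare transcripts. DESeq2 1.42.0 was an alternative. Library totals of 7758979 to 34615602 leave the low genes with few counts and thus less precise values. Libraries of a group differed beyond sampling noise (chi-square per degree of freedom of 4.19 to 57.4), so none was treated as a repeat run of another. Across the settings the median of all tested genes stayed within 0.039 of 0 on the log2 scale. On simulated counts for Adh against Susp, 145 of 200 genes changed 2-fold were recovered among 12697 genes, with 5 false calls. These counts held only 2-fold changes and no library set apart, so recovery of the smaller changes reported here was not tested.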

Additional observations from a re-analysis of the deposited data

Results flagged for a closer look

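In groups of 4 libraries, 1 library can lie far from the other 3. Of 45 sets of 4 values checked (the shares, and the stalk proteins, RPSA, RPL36A, RPL22L1, RPS27L and RPL39L in both species), 8 held such a library. For a single set chance alone gives about 1 in 20. The sets share libraries and are not independent, so no excess over chance can be read from these 8 sets. Susp replicate 2 accounts for 3 of them, with the highest share of counts on ribosomal protein genes, 9.58%, the highest RPLP0 level, 2663 CPM, and the highest RPSA level, 2259 CPM. Replicate 1 was lowest for the stalk genes, at 379 CPM for RPLP1 in Adh, at 448 CPM for RPLP2 in Sep and at 836 CPM for mouse Rplp1 in the Adh libraries. Adh replicate 3 was highest for RPL22L1 at 63.2 CPM, and Adh replicate 4 was highest for mouse Rpl39l at 109 CPM. No explanation of these values was tested.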

How the results depend on the processing

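Limits of depth touch RPL36A, RPL39L and Rpl24, which rest on few counts. The median of Adh over Susp, −0.13 with all libraries, reversed to 0.033 without Susp replicate 2 (also with factors from genes outside the list, 0.033), to 0.018 without it and with GC and length trends removed, to 0.055 without it and with a replicate block, and, over the fits with a replicate number left out of every group, it ranged from −0.19 to 0.059. The medians of Susp over Sep and Adh over Sep kept their sign in all 21 alternatives, but the first fell to 0.13 without Susp replicate 2 and GC and length trends, and the second to 0.16 with the length trend removed, to 0.14 with GC and length trends removed (0.14 also with the block or without Susp replicate 2).

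Counts at an adjusted p of at most 0.05 depended on the setting. For Susp over Sep, 1 with all libraries became 24 with a replicate block and 24 by DESeq2, 54 without the filter on low counts, 3 or 2 with a trend in exon or mRNA length removed, 15 with GC and length trends removed (24 with the block), 0 with upper-quartile factors or the 2 groups alone, and 0 to 2 when a replicate was left out. Without Susp replicate 2 it was 4 (also with factors from outside the list), 38 with the block and 20 with GC and length trends removed. For Adh over Sep, 0 became 3 without the filter, 2 with the length trend removed, 12 with GC and length trends removed (13 with the block), 34 with 2 groups alone, and 0 to 20 when a replicate was left out. Without Susp replicate 2 it was 48 (also with factors from outside the list), 72 with the block and 44 with GC and length trends removed. For Adh over Susp, 0 became 2 with the block, 1 by DESeq2, 2 without the filter, 5 with GC and length trends removed (6 with the block), and without Susp replicate 2 it was 10 with the block and 5 with GC and length trends removed. In MS-5 cells 0 became 6 with GC and length trends removed and the block. Called genes numbered 1 in place of 0 for Adh over Susp under the block, DESeq2 and GC and length trends removed, and for Adh over Sep under the last. The causes were not tested. The share of members that passed was below that of all tested genes for Adh over Susp under the block (2.44 against 5.33%, and 12.2 against 14.6% without Susp replicate 2) and by DESeq2 (1.22 against 3.97%), and for Adh over Sep with the length trend removed (2.44 against 5.18%). It was close for both without the filter (2.41 against 2.18%, and 3.61 against 2.86%) and in MS-5 cells (7.32 against 7.34%). For Susp over Sep, 29.3% of members under the block, 29.3% by DESeq2 and 65.1% without the filter stood against 3.86, 3.02 and 2.49% of all tested genes. For Adh over Sep without Susp replicate 2, 58.5% stood against 11.9%, and 87.8 against 22.1% with the block.

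The replicate numbers were not taken as pairs, since the deviations of same-numbered libraries correlated above 0.1 for 1 of 4 numbers in Adh and Susp, 1 in Susp and Sep, 3 in Adh and Sep and 2 in the mouse counts. Of the 8 libraries in each comparison, 3, 3, 6 and 6 correlated best with their own number. The sample names also share a number within each replicate, and whether that marks a shared experiment could not be settled here. With mRNA in place of coding length, the paralog's share of the pair in Sep cells was 0.108% for RPS27L, 1.82% for RPL39L, 17.8% for RPL26L1 and 4.43% for RPL7L1, and in MS-5 cells it was 25.6% for RPL22L1, 31.5% for RPS27L, 10.3% for RPL7L1 and 24.4% for RPL36AL. The alternatives of GC and mRNA length and those with Susp replicate 2 left out together with them were chosen after seeing the data.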
